A study of Mus musculus with 6 samples.

Results

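Cyclic nucleotide phosphodiesterases are the enzymes that hydrolyse cAMP and cGMP. Of the family, 8 genes were read here in regulatory T cells (Treg), the Foxp3-expressing subset of CD4 T cells that restrains immune responses: Pde3b, Pde5a, Pde2a, Pde4a, Pde4b, Pde4d, Pde7a and Pde8a. All probe sets that the platform annotation assigned to these symbols were taken, 25 of the 45101 probe sets on the array, and each was kept apart. The members were chosen by the signals of this same comparison, chiefly the high ones of Pde3b and Pde5a in induced Treg, so the differences of the members are given as a description without p-values.

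The series holds 6 Affymetrix mouse arrays of CD4+ Foxp3+ cells from mesenteric lymph nodes of BALB/c mice aged 4 to 6 weeks, 3 arrays a group. Induced Treg (iTreg) came from TBmc Foxp3-GFP mice that had received ovalbumin orally at 1% for 1 week, and were labelled as Nrp-negative. TBmc mice lack recombinase and make their lymphocytes from a fixed T cell receptor for ovalbumin and a fixed B cell receptor. Total Treg came from wild-type (WT) Foxp3-GFP mice, for which the labels give no feeding. Receptor repertoire, genetic background, feeding and gate therefore differ together between the groups and cannot be told apart, and it is not stated if each replicate was a separate mouse. The labels of 2 arrays depart from their group: WT replicate 1 is titled total Treg but has the Nrp-negative cell type label, and the strain label of iTreg replicate 1 names neither TBmc nor the reporter. For the members and for pathway genes whose groups did not overlap on the probe set with the smallest p, differences without both of these arrays are given beside the main ones. In these sorted populations, fewer cells of a type and less RNA per cell cannot be told apart.

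cAMP made by adenylyl cyclases activates protein kinase A and Epac and restrains T cell receptor signalling, and cGMP made by guanylyl cyclases acts through protein kinase G and on some phosphodiesterases. Treg are known for a high cAMP content, which they can pass to other T cells, and for low expression of Pde3b, a gene that Foxp3 represses. Of the members, Pde5a is specific for cGMP, Pde2a hydrolyses both nucleotides, Pde3b hydrolyses cAMP and is inhibited by cGMP, and the PDE4, PDE7 and PDE8 enzymes are specific for cAMP.

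Each array as deposited had a 2% trimmed mean of 150.0, that is, signals had been scaled. Median signals were 24.3 to 27.5 in iTreg arrays and 21.1 to 32.3 in WT arrays (exact permutation test, two-sided p = 0.6; 3 arrays against 3 cannot go below 0.1). RNA integrity was read from Gapdh, whose 3′ signal exceeded its 5′ signal by a log2 ratio of 3.06, 2.48 and 3.38 in iTreg replicates 1, 2 and 3, against 2.28, 2.53 and 2.34 in WT replicates 1, 2 and 3. The groups overlapped in this ratio (exact permutation p = 0.2). Beta-actin had 3′ to 5′ log2 ratios of 0.38, 0.25 and -0.0004 in iTreg replicates 1, 2 and 3. In WT replicates 1, 2 and 3 they were 0.14, 0.27 and 0.32, also with overlap (exact permutation p = 0.8). The highest signal of 27 bacterial controls for which no target had been spiked in was 28.5, which is used below as the upper end of background. Of 8 T cell markers, 7 (Cd3d, Cd3e, Cd3g, Cd4, Cd5, Il2ra and Ctla4) lay above that level on every array. The summed signal of the 8 was 16219 to 18977 in iTreg arrays, against 19078 to 25715 in WT arrays, without overlap. Il2ra, the IL-2 receptor alpha chain, had 1169, 2191 and 2256 in iTreg arrays, against 3537, 4656 and 5859.7 in WT arrays. Cd5 had 823, 661 and 520 in iTreg arrays, against 1445, 1323 and 1392 in WT arrays. The other markers overlapped between groups, so the gap in the sum was not shared by the list. Cd3e had 3389, 4122 and 6949 in iTreg arrays, against 2865, 3592 and 5005 in WT arrays. Cd4 had 1928, 2009 and 3739 in iTreg arrays, against 1629, 1497 and 2186 in WT arrays. Foxp3 itself, on its single probe set, had 31.7, 54.6 and 15.6 in iTreg arrays, against 26.2, 45.7 and 9.16 in WT arrays, so the defining marker was near background in both groups.

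Across all 27022 probe sets tested, limma called 7 at an adjusted p under 0.05, 1 higher and 6 lower in iTreg. Of the 25 member probe sets 19 passed the expression filter and were tested. limma called 0 of the 19, where 0.0259% of all probe sets tested were called. At an unadjusted p under 0.05 it gave 5 of the 19 higher and 0 lower, where the shares over all probe sets tested were 2.44% higher and 3.77% lower, 6.21% in all. The signals of the groups did not overlap for 4 of the 19, all 4 higher in iTreg, where 4.54% of all probe sets tested were higher without overlap and 6.89% lower. All 4 belong to Pde3b and Pde5a, the genes whose values led to the choice of the family, so nothing is read from the shares. The median log2 difference over the 19 was 0.55, against -0.02 over all probe sets tested, with 17 positive and 2 negative, where 47.9% of all probe sets tested were positive. Of the 17 positive, 7 belong to Pde7a and 4 to Pde3b and Pde5a. Probe sets of 1 gene are not independent and the members were chosen by this comparison, so nothing is read from these values either.

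Pde3b, which degrades cAMP, was the member with the largest difference. Its single probe set, 1433694_at, had signals of 834, 399.5 and 765 in iTreg replicates 1, 2 and 3, against 141, 88.6 and 21.3 in WT replicates 1, 2 and 3. The lowest iTreg array lay well above the highest WT array, and WT replicate 3 lay within background. The mean signal was 666 ± 234 in iTreg and 83.8 ± 60.2 in WT Treg (SD, n = 3 each), a 7.95-fold ratio of means. On the scale of log2(signal + 16), which damps differences of low signals, the difference was 2.94 with a limma standard error of 0.51. By signed difference it ranked 2 among the 27022 probe sets, a description only, since the family was chosen by these values. The difference was 3.19 without the 2 arrays with label doubts and 3.38 without WT replicate 1 alone, the WT array with the highest Pde3b signal. It was 2.34 without WT replicate 3, the lowest one, and 2.21 without both replicate 3 arrays.

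Pde5a, which degrades cGMP and is the target of sildenafil, had iTreg signals that all exceeded all WT signals on each of its 3 probe sets. On the brightest, 1460118_at, signals were 282, 128 and 388 in iTreg replicates 1, 2 and 3, against 71.8, 18.1 and 41.4 in WT replicates 1, 2 and 3. iTreg replicate 2 was the lowest of its group and WT replicate 2 the lowest of the other. The mean signal was 266 ± 131 in iTreg and 43.8 ± 26.9 in WT Treg (SD, n = 3 each), a 6.07-fold ratio of means and a log2 difference of 2.22 at a standard error of 0.50. That difference was 2.45 without the 2 arrays with label doubts and ranged from 1.87 to 2.64 without single arrays.

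The other Pde5a probe sets were dimmer and gave smaller differences in the same direction. On 1458341_x_at, whose name ending marks probes that can match other transcripts, signals were 91.4, 99.99 and 52.9 in iTreg arrays, against 28.8, 20.1 and 7.89 in WT arrays. WT replicates 2 and 3 lay within background. The log2 difference was 1.49 with a standard error of 0.42, and 1.61 without the 2 arrays with label doubts. It depends on the pseudocount, at 2.16 with 1 and 0.80 with 64. On 1455970_at signals were 45.0, 57.8 and 35.2 in iTreg arrays, against 23.2, 26.6 and 4.65 in WT arrays, all 3 WT values within background. The difference there is a bound on the ratio of geometric means measured on these arrays, and does not cover their spread. With WT signals raised to the upper end of background, the geometric mean was at least 1.58-fold higher in iTreg. Measured arithmetic means were 46.0 ± 11.3 in iTreg and 18.2 ± 11.8 in WT Treg (SD, n = 3 each). The fitted difference on 1455970_at without the 2 arrays with label doubts was 1.05. The 3 probe sets followed each other over the 6 arrays with Pearson r from 0.57 to 0.94, and 1460118_at followed Pde3b with r = 0.89. These correlations describe 6 arrays in which both genes differ between the groups.

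**Figure D1:**
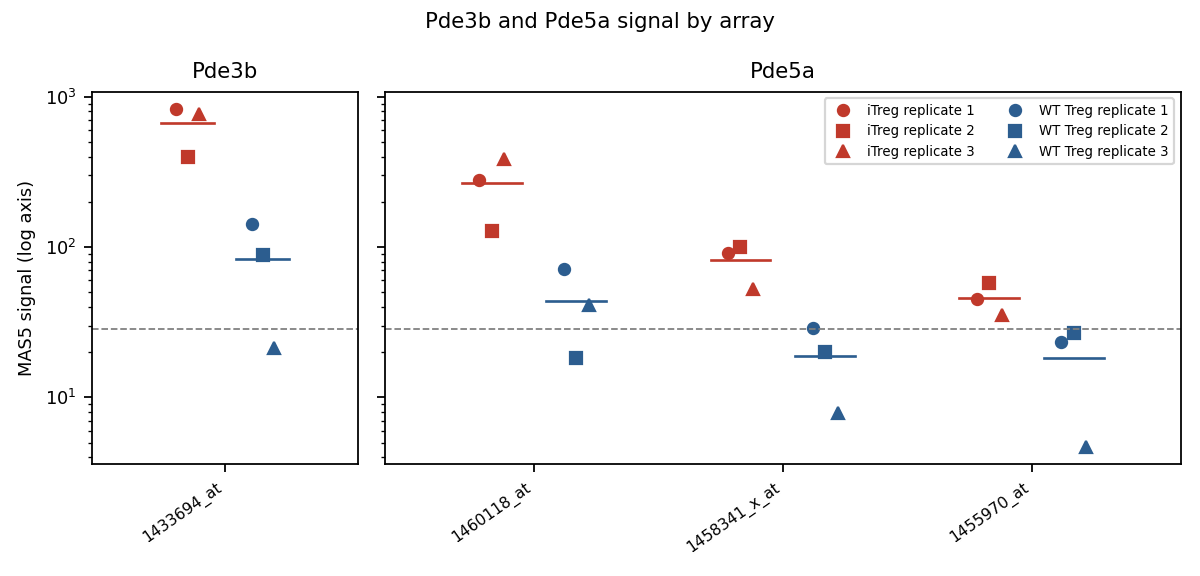
MAS5 signal on a log axis for the probe sets of Pde3b and Pde5a, with a point for each array (red, iTreg; blue, WT Treg; symbols mark replicates), bars at group means and a dashed line at 28.5, the highest unspiked control. All iTreg points lie above all WT points of the same probe set, and WT Treg points of 1455970_at lie below the line.

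Gs-linked cAMP signals act on genes through the cAMP response element, so the promoter windows of the members, from 250 bases before to 50 bases after the annotated start, were searched in the RefSeq sequences of GRCm38.p6. The motifs were the full element TGACGTCA, its shorter core TGACG, which the full element contains, and the forkhead core TGTTTAC, on both strands. The table held 15 windows for 6 of the 8 genes: Pde5a, Pde2a, Pde4a, Pde4b, Pde4d and Pde8a. TGACGTCA was in 0 of the 15, where 1.79% of 32851 windows of all genes held it. TGTTTAC was also in 0 of the 15, where 3.65% of all windows held it. TGACG was in 4 of the 15, where 20.8% of all windows held it. The window of Pde5a is shown as that of a member with higher iTreg signals, and windows of Pde4b and Pde8a as examples with the shorter core, whose bases are in capitals. All 3 are on the plus strand, at chr3:122728908-122729207 for Pde5a, chr4:102421305-102421604 for Pde4b and chr7:81213015-81213314 for Pde8a.
Pde5a: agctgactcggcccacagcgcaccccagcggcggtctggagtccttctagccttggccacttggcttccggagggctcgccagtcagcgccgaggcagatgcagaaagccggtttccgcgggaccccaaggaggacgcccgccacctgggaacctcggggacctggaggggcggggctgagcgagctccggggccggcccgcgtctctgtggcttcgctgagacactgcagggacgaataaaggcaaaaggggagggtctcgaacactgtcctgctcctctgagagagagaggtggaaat
Pde4b: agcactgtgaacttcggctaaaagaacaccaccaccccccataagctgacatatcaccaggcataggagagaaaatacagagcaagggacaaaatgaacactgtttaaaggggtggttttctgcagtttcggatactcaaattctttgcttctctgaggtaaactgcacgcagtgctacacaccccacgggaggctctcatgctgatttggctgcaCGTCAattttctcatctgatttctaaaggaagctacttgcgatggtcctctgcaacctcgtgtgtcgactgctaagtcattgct
Pde8a: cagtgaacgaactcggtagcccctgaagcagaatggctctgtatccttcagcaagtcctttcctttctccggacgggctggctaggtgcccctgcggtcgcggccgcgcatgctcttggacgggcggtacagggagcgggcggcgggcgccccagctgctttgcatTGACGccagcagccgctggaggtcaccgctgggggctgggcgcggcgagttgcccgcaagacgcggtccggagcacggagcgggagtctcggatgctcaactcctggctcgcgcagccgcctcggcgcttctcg
The Pde5a window held none of these letters and had 66.3% G and C with 23 CG pairs, against a median of 52.7% and 7 over all windows. In Pde4b the shorter core lay on the minus strand with its first printed base 34 bases before the start, and in Pde8a on the plus strand 84 bases before it. A match is a string of letters and not a bound site.

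Pde2a hydrolyses cAMP and cGMP and is stimulated by cGMP. Its brightest probe set, 1447707_s_at, had 1609, 783 and 4021 in iTreg replicates 1, 2 and 3, against 960.0, 1316 and 1258 in WT replicates 1, 2 and 3. The groups overlapped, since iTreg replicate 2 was the lowest of the 6 arrays and iTreg replicate 3 the highest. The log2 difference of 0.55 had a standard error of 0.47 and was -0.05 without iTreg replicate 3 and 0.46 without the 2 arrays with label doubts. On 1452202_at signals were 195, 210.0 and 443 in iTreg arrays, against 157, 199 and 170 in WT arrays, again with iTreg replicate 3 the highest. Its difference was 0.55 with a standard error of 0.39, 0.19 without iTreg replicate 3 and 0.69 without the 2 arrays with label doubts. The third probe set, 1447708_x_at, did not pass the filter, with signals of 0.37 to 8.98 in iTreg arrays and 0.55 to 0.78 in WT arrays.

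The PDE4 enzymes, specific for cAMP and inhibited by rolipram, are the ones drawn to the T cell receptor during costimulation. Pde4b had 6 probe sets, of which 3 passed the filter. On 1422474_at signals were 846, 925 and 599.5 in iTreg arrays, against 722, 529 and 665 in WT arrays, a log2 difference of 0.29 at a standard error of 0.30. On 1442700_at they were 447, 447 and 409 in iTreg arrays, against 466, 349 and 263 in WT arrays, a difference of 0.30 with a standard error of 0.32. The groups overlapped on both, and without the 2 arrays with label doubts the differences were 0.32 on 1422474_at and 0.48 on 1442700_at. A probe set that the annotation ties to the same sequence record as 1422474_at gave the opposite sign. This probe set, 1422473_at, had 53.3, 246 and 109.8 in iTreg replicates 1, 2 and 3, against 379.5, 115 and 389 in WT replicates 1, 2 and 3. iTreg replicate 1 was its lowest array, and WT replicate 2 lay below iTreg replicate 2. The difference was -1.07 with a standard error of 0.56 and was -0.34 without the 2 arrays with label doubts. The other 3 Pde4b probe sets lay at signals of 0.30 to 8.22 in iTreg arrays and 0.20 to 10.9 in WT arrays, within background.

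Pde4d had 1 tested probe set, 1435280_at, with 122, 248 and 241 in iTreg replicates 1, 2 and 3, against 105, 83.0 and 134 in WT replicates 1, 2 and 3. Only iTreg replicate 1 lay within the range of the WT arrays. The mean signal was 204 ± 71.0 in iTreg and 107 ± 25.4 in WT Treg (SD, n = 3 each), a log2 difference of 0.80 at a standard error of 0.41. It was 1.10 without the 2 arrays with label doubts. Its other probe set, 1459311_at, stayed at 0.82 to 14.6 in iTreg arrays and 0.61 to 9.86 in WT arrays. The single probe set of Pde4a, 1421535_a_at, had 15.4, 7.59 and 2.53 in iTreg arrays, against 1.87, 4.24 and 2.27 in WT arrays. All 6 Pde4a values lay within background and the probe set did not pass the filter, so no level can be given for Pde4a.

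Pde7a, a cAMP-specific enzyme insensitive to rolipram and known from activated T cells, had 7 probe sets, which all passed the filter. Their log2 differences were all positive, from 0.03 on 1451839_a_at to 1.08 on 1438041_at, and the groups overlapped on each. On 1438041_at signals were 682, 478 and 349 in iTreg replicates 1, 2 and 3, against 440.1, 207 and 114 in WT replicates 1, 2 and 3. The difference of 1.08 had a standard error of 0.45, and was 1.32 without the 2 arrays with label doubts and 0.65 without WT replicate 3. On 1458218_s_at signals were 983, 615 and 218 in iTreg arrays, against 471, 244 and 149 in WT arrays, a difference of 0.94 with a standard error of 0.53. On 1439484_at they were 810.3, 759 and 367 in iTreg arrays, against 588, 368 and 242 in WT arrays, a difference of 0.68 with a standard error of 0.40. Without the 2 arrays with label doubts the difference was 0.89 on 1458218_s_at and 0.79 on 1439484_at.

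The remaining 4 Pde7a probe sets differed by 0.03 to 0.29, less than their standard errors of 0.40 to 0.55, and by 0.11 to 0.40 without the 2 arrays with label doubts. What the 7 shared was a pattern over single arrays. iTreg replicate 1 was the highest iTreg array and iTreg replicate 3 the lowest on 7 of 7. WT replicate 1 was the highest WT array on 7 of 7, and WT replicate 3 the lowest on 6 of 7. iTreg replicate 3 lay below WT replicate 1 on 7 of 7. Of the 12 other tested member probe sets, WT replicate 1 was the highest WT array on 7 and WT replicate 3 the lowest on 6. The WT order was thus not particular to Pde7a. On the same 12, iTreg replicate 1 was the highest iTreg array on 2 and iTreg replicate 3 the lowest on 4. iTreg replicate 3 lay below WT replicate 1 on 4 of the 12. Over the 6 arrays the 21 pairs of Pde7a probe sets had Pearson r from 0.69 to 0.98. The replicate 3 arrays also had the brightest spike-in controls after scaling, with a median of 5919 in iTreg replicate 3, against 4483 and 5314 in the other iTreg arrays, and of 6693 in WT replicate 3, against 3670.4 and 4474 in the other WT arrays. The part of this in the Pde7a pattern was not tested.

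Pde8a, a cAMP-specific enzyme of high affinity that is also insensitive to rolipram, gave opposite signs on its probe sets. On 1418406_at signals were 198, 131 and 190.1 in iTreg replicates 1, 2 and 3, against 151, 114 and 87.6 in WT replicates 1, 2 and 3. The difference was 0.51 with a standard error of 0.39, with only iTreg replicate 2 inside the WT range, and was 0.58 without the 2 arrays with label doubts. On 1418407_at signals were 10.7, 69.4 and 11.1 in iTreg arrays, against 76.8, 58.1 and 55.9 in WT arrays. iTreg replicates 1 and 3 lay within background there, while iTreg replicate 2 lay among the WT arrays. The difference of -1.001 had a standard error of 0.49 and ranged from -1.56 to -0.72 without single arrays. It was -0.60 without the 2 arrays with label doubts, -1.57 with a pseudocount of 1 and -0.49 with 64.

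**Figure D2:**
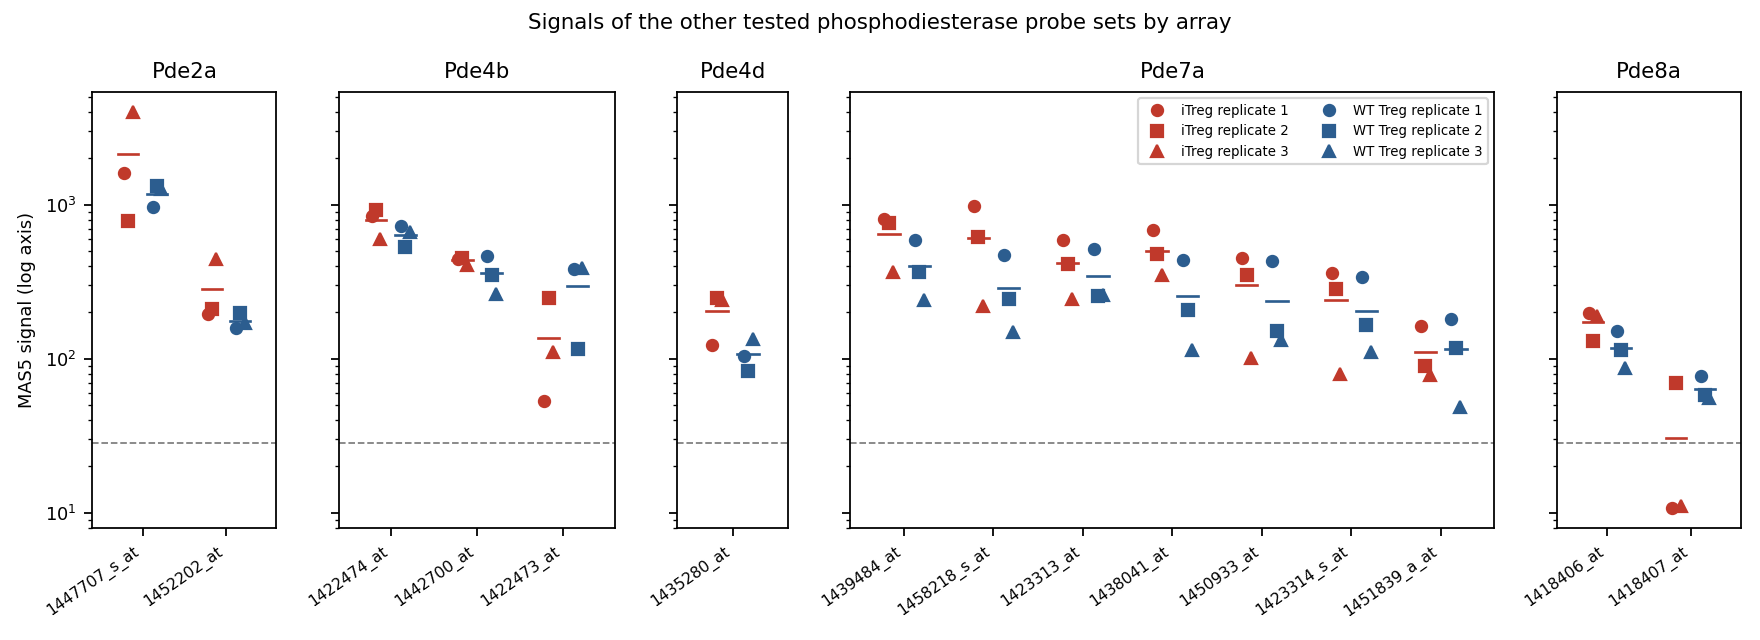
MAS5 signal on a log axis for the tested probe sets of Pde2a, Pde4b, Pde4d, Pde7a and Pde8a, with a point for each array (red, iTreg; blue, WT Treg; symbols mark replicates), bars at group means and a dashed line at 28.5, the highest unspiked control. The groups overlap on every probe set, and on all 7 Pde7a probe sets replicate 1 (circles) is the highest array of each group.

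**Figure D3:**
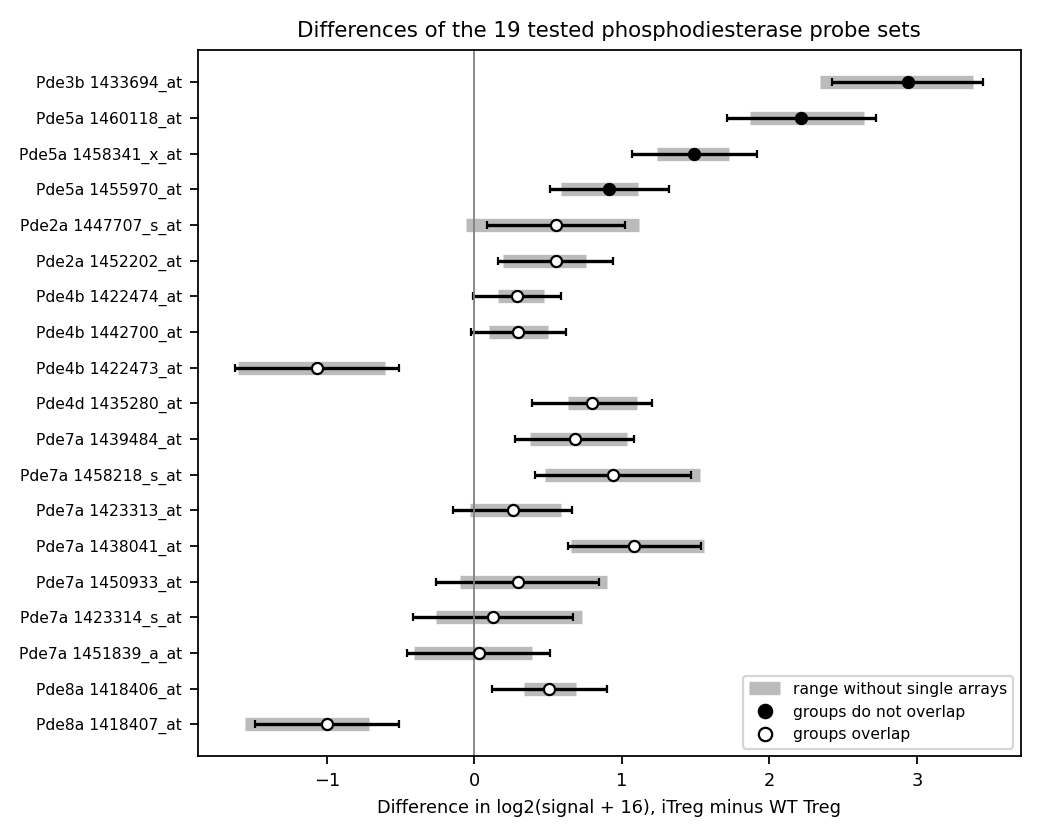
Difference in log2(signal + 16), iTreg minus WT Treg, for the 19 tested member probe sets, with limma standard errors as bars and the range of the difference without single arrays in grey. The 4 filled points, of Pde3b and Pde5a, are those whose groups do not overlap; 1 probe set each of Pde4b and Pde8a lies below 0.

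The family outside the 8 genes was read from a list of 16 further phosphodiesterase genes. Of these 15 had a probe set and 7 had a probe set that passed the filter, 9 probe sets in all. limma called 0 of the 9, with 0 at an unadjusted p under 0.05, and their median log2 difference was -0.08. Pde1b, a calcium- and calmodulin-dependent enzyme, had 308, 251 and 218 in iTreg replicates 1, 2 and 3, against 186, 207 and 6.79 in WT replicates 1, 2 and 3. Its groups did not overlap, but the difference of 1.44 (standard error 0.71, limma adjusted p = 0.828) was 0.36 without WT replicate 3 and 1.81 without the 2 arrays with label doubts. The rod phosphodiesterase gene Pde6b differed by -0.57 and the calmodulin-dependent Pde1c by -0.31, with overlapping groups.

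Enzymes that make the nucleotides were read next. Of 10 adenylyl cyclase genes 7 were tested, on 16 probe sets. limma called 0, with 2 higher and 0 lower at an unadjusted p under 0.05. Adcy7, an isoform of blood cells, had 4115, 3673 and 5981 in iTreg arrays, against 2651, 2981 and 2979 in WT arrays on 1456307_s_at. The groups did not overlap, and the log2 difference was 0.64 (standard error 0.27, limma adjusted p = 0.775), while its other tested probe sets differed by -0.35 and 0.15. The difference on 1456307_s_at was 0.65 without the 2 arrays with label doubts. Adcy6, inhibited by calcium, had 163, 127 and 106 in iTreg arrays, against 64.4, 79.4 and 48.5 in WT arrays, a difference of 0.88 (standard error 0.40, limma adjusted p = 0.795), and 0.75 without the 2 arrays with label doubts. Adcy4 differed by 0.45 with overlapping groups and signals within background.

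On the cGMP side, 3 of 9 genes were tested, on 6 probe sets, of which limma called 0, with 0 higher and 3 lower at an unadjusted p under 0.05. All 3 belong to Gucy1a1, a subunit of the nitric oxide-sensitive guanylyl cyclase. On 1420533_at it had 31.9, 25.7 and 17.8 in iTreg replicates 1, 2 and 3, against 82.4, 117 and 181 in WT replicates 1, 2 and 3. The log2 difference was -1.75 (standard error 0.43, limma adjusted p = 0.377), from -1.99 to -1.49 without single arrays and -2.11 without the 2 arrays with label doubts. On this probe set iTreg replicate 1 alone of its group lay above background. The other Gucy1a1 probe sets differed by -1.88 on 1420534_at and -1.03 on 1434141_at, also without overlap. On 1434141_at WT replicate 3 was the single array above background. The partner subunit gene Gucy1b1 differed by -0.20 on 1420871_at, where all 6 arrays lay within background, and by -0.22 on 1420872_at, where replicate 2 of each group lay above it. The kinase gene Prkg2 differed by 0.28, with all 6 arrays within background.

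In a list of receptors that raise cAMP and of G proteins, 7 of 11 genes were tested, on 12 probe sets. The list includes the inhibitory G protein genes Gnai1, Gnai2 and Gnai3, so its counts do not cover the cAMP-raising side alone. Of these Gnai2 and Gnai3 were tested, with overlapping groups on each probe set. The adenosine receptor genes were not analysed here. limma called 0 of the 12, with 0 higher and 2 lower at an unadjusted p under 0.05. These were Ptgir, the prostacyclin receptor, and Ptger2, a prostaglandin E2 receptor. Ptgir had 17.99, 18.6 and 21.8 in iTreg arrays, all within background, against 37.9, 159 and 61.6 in WT arrays. With iTreg signals raised to the upper end of background, the geometric mean of Ptgir was at least 2.52-fold lower in iTreg. This bounds the ratio measured on these arrays and does not cover their spread. Measured arithmetic means were 19.4 ± 2.05 in iTreg and 86.3 ± 64.4 in WT Treg (SD, n = 3 each). The fitted log2 difference, which depends on the pseudocount, was -1.35 (limma adjusted p = 0.712) and was -1.69 without the 2 arrays with label doubts. Ptger2 had 171, 122 and 152 in iTreg arrays, against 202, 437 and 294 in WT arrays, a difference of -0.94 (standard error 0.38, limma adjusted p = 0.775) and of -1.30 without the 2 arrays with label doubts. Neither overlapped between groups. Ptger4, another prostaglandin E2 receptor, differed by -0.27 on 1421073_a_at and by 0.26 on 1424208_at, with overlap on both. Gnas, the stimulatory G protein subunit, differed by -0.34 on 1453413_at with overlap, and by -0.14 and -0.07 on its other tested probe sets.

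Of the cAMP effectors, protein kinase A and Epac genes, 8 of 11 were tested on 17 probe sets, with 0 called by limma and 0 higher and 2 lower at an unadjusted p under 0.05. The regulatory subunit gene Prkar1b differed by -0.90 on 1440132_s_at (limma adjusted p = 0.775), with iTreg signals of 0.90 to 15.3, within background, against 18.1 to 37.2 in WT arrays, of which 2 of 3 lay above it. That difference was -0.63 without the 2 arrays with label doubts, and the other tested Prkar1b probe sets differed by -0.34 and -0.28 with overlap. Rapgef3, which encodes Epac1, had 8.61, 5.62 and 0.31 in iTreg arrays, against 127, 62.2 and 0.48 in WT arrays, so WT replicate 3 lay among the iTreg arrays (log2 difference -1.47, limma adjusted p = 0.783). The subunit gene Prkar2a differed by -0.72 on 1428783_at with overlap, and by -0.11 and 0.21 on its other tested probe sets. Of brighter subunit genes, Prkar1a differed by 0.04 and -0.10 and Prkaca by -0.09 and 0.03, with overlap. Prkacb differed by 0.46 on 1420611_at with overlap, by -0.34 on 1420610_at without overlap, and by 0.22 on 1457197_at within background. The list also holds the kinase inhibitor genes Pkia, Pkib and Pkig. All 12 A-kinase anchoring protein genes were tested, on 31 probe sets, with 0 called by limma and 0 at an unadjusted p under 0.05. Akap2 differed by 0.83 without overlap on 1455870_at, 1.05 without the 2 arrays with label doubts, and by 0.18 on its other tested probe set. Akap9 differed by -0.70 with overlap on 1455151_at and by -0.18 to 0.36 on its 5 other tested probe sets. Akap12 differed by 0.61 with overlap, which was -0.03 without iTreg replicate 3.

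Of the CREB transcription factors and coactivators 7 of 8 genes were tested, on 20 probe sets, again with 0 called by limma and 0 at an unadjusted p under 0.05. Crem, whose short isoform ICER represses cAMP-responsive genes, differed by 0.69 without overlap on 1430847_a_at, with 40.4, 33.8 and 87.5 in iTreg arrays, against 32.6, 30.9 and 14.6 in WT arrays. The difference was 0.92 without the 2 arrays with label doubts, and the other tested Crem probe sets ranged from -0.69 to 0.48. Crtc2 differed by -0.52 on 1429373_x_at and by 0.26 on its other tested probe set. Creb1 differed by -0.41 without overlap on 1421582_a_at, -0.32 without the 2 arrays with label doubts, and by -0.24 to 0.19 on its 4 others. Both cAMP exporter genes were tested, on 8 probe sets with 0 called by limma and 0 at an unadjusted p under 0.05. Abcc5 differed by -0.92 on 1418042_a_at and Abcc4 by -0.41, both with overlap. On 1418042_a_at all iTreg arrays and WT replicate 3 lay within background. The 6 other tested Abcc5 probe sets ranged from -0.75 to 0.63. Among them 1435685_x_at, above background on every array, differed by -0.54 and was the only one without overlap.

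Over the 8 lists together limma called 0 of 119 probe sets. At an unadjusted p under 0.05 it gave 2 higher and 7 lower, 7.56% of the 119, close to the 6.21% over all probe sets tested. The median log2 difference of the 119 was -0.11, against -0.02 over all probe sets tested. Groups did not overlap for 11.8% of the 119, beside 11.4% of all probe sets tested in either direction.

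**Figure D4:**
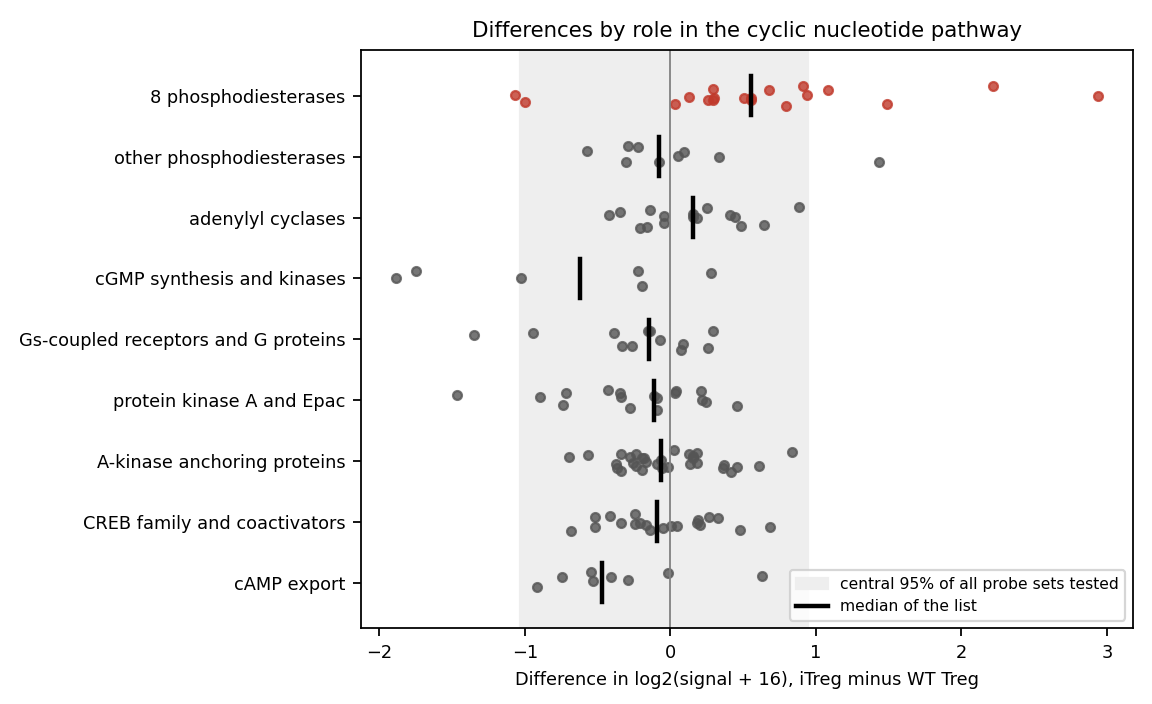
Difference in log2(signal + 16), iTreg minus WT Treg, of each tested probe set (points) in the 8 phosphodiesterases and in 8 lists of the cyclic nucleotide pathway, with list medians as bars and a grey band for the central 95% of all probe sets tested (-1.03 to 0.94). The 3 lowest points of the cGMP list are the Gucy1a1 probe sets.

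Platelets, endothelium and smooth muscle are known for Pde5a, endothelium also for Pde2a, and conventional T cells for Pde3b. Markers of other cells were therefore read beside the members. No list marked CD4 T cells other than Treg, so the part of conventional CD4 T cells in the Pde3b values was not tested. Of 4 measured platelet markers 4 lay within background on all 6 arrays, with a summed signal of 19.2 to 71.2 in iTreg arrays and 28.4 to 53.1 in WT arrays. Of 6 endothelial and smooth muscle markers 3 lay within background on all arrays, Cdh5, Tek and Emcn, and the sum was 79.9 to 169 in iTreg arrays and 110.3 to 169 in WT arrays. The smooth muscle markers Acta2 and Myh11 lay above it on 5 and 3 arrays and Kdr on 2, each with overlapping groups. Of 4 B cell markers 2 lay within background throughout, Ms4a1 and Blnk, with sums of 53.8 to 111 in iTreg arrays and 56.4 to 115 in WT arrays. Cd79b lay above it on 4 arrays and Cd79a on 2, with overlapping groups. Of 6 myeloid and dendritic cell markers 2 lay within background throughout, Itgax and Cd14, with sums of 98.7 to 178 in iTreg arrays and 62.5 to 104 in WT arrays. Lyz2 had 44.6, 44.2 and 23.1 in iTreg arrays, against 21.9, 9.01 and 8.79 in WT arrays, without overlap. Cd68 had 74.4, 67.8 and 21.5 in iTreg arrays, against 61.4, 23.8 and 16.4 in WT arrays. Csf1r and Itgam lay above background on 1 array each. Of 2 erythroid markers 1 lay within background throughout, Hba-a1, with sums of 16.8 to 86.6 in iTreg arrays and 44.0 to 55.5 in WT arrays. Alas2 lay above it on 5 arrays, with overlapping groups.

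Among the lists of other cells, that of CD8 T cells and NK cells had sums that did not overlap, at 159.5 to 239 in iTreg arrays, against 148 to 157 in WT arrays. Of the 4 measured, Ncr1 lay within background throughout and Cd8a and Cd8b1 lay above it on all arrays. Cd8b1 alone had groups that did not overlap, so the gap in the sum was not shared by the list. Cd8a had 30.9, 93.0 and 33.5 in iTreg arrays, against 43.8, 39.8 and 39.2 in WT arrays. On Cd8a, iTreg replicates 1 and 3 lay below all WT arrays. Nkg7 had 56.4, 8.62 and 70.8 in iTreg arrays, against 47.6, 72.5 and 69.4 in WT arrays. Cd8b1 had 69.6, 132 and 70.1 in iTreg replicates 1, 2 and 3, against 63.3, 33.7 and 34.0 in WT replicates 1, 2 and 3. iTreg replicate 2, the array with the highest Cd8b1 signal, had the lowest Pde3b signal and the lowest 1460118_at signal of Pde5a in its group. On the Pde5a probe sets 1458341_x_at and 1455970_at the same array was the highest of its group, at 99.99 and 57.8. The order of so few arrays on single markers decides nothing. The part of CD8 T cells and NK cells, and of the lower T cell marker sum, in the member values was not tested.

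The genes whose pattern over the 6 arrays was most like that of Pde3b were sought among the brightest tested probe sets of 10659 named genes. The highest Pearson r were those of Hmbox1 (0.99), Chchd6 (0.986), Lyst (0.981), Pgap2 (0.980) and Themis (0.979). With arrays scaled to equal medians, r of Hmbox1 was 0.867. For Pde5a on 1460118_at they were those of Jak2 (0.995), Slc66a2 (0.993), Spc24 (0.988), Tlk1 (0.985) and Abcb9 (0.985). With median scaling, r of Tlk1 was 0.819. The values come from the same 6 arrays, were picked as the highest of many, and describe likeness only.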

How the data were processed

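The authors deposited 1 table of MAS5 intensity signals, linear and scaled per array, per the submitters' processing notes; version and genome build are not given in the sources used here. Trizol RNA was labelled with biotin, per the labels' protocols. Groups and replicate numbers came from the sample titles. Detection calls were not used here, and the number of arrays limits the precision.

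Of 45101 probe sets 64 were controls, 34945 had 1 gene symbol in the platform annotation, 932 several and 9160 none. Signals were transformed as log2(signal + 16). Probe sets with a mean over the 6 arrays at or above the 40th percentile (4.91) were tested, 27022 in all, with limma 3.58.1 in R 4.3.3 (lmFit, eBayes with an intensity trend), two-sided, with Benjamini-Hochberg adjustment at 0.05, as iTreg minus WT Treg. The fit was tested on simulated data. P-values measure the spread between these arrays, and part of it may be technical.

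The members and lists were chosen with earlier results of these data known. Named were all member probe sets, the 3 tested genes of each pathway list with the smallest p, and the 5 genes most like Pde3b and Pde5a, predicted genes left out. Some further genes of the receptor and G protein list and of the protein kinase A list were named beside these. Marker lists covered T cells, B cells, CD8 and NK cells, myeloid cells, platelets, endothelium with smooth muscle, and erythroid cells. Sequences are from RefSeq GRCm38.p6. The alternatives tried were a pseudocount of 1 or 64, median scaling, quantile normalization, a 60th percentile filter or none, other variance models, array weights, 1 probe set a gene, the replicate number as a block, and arrays left out.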

Additional observations from a re-analysis of the deposited data

How the results depend on the processing

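The count of 7 probe sets called over the table was 2 with a pseudocount of 1, 2 with no filter, 12 with array weights, 3 with 1 probe set a gene, 3 with the replicate number as a block, 0 without both arrays with label doubts, 0 without both replicate 3 arrays, and 0 to 9 without single arrays. The cause was not tested. The count of member probe sets called was 1, Pde3b, with median scaling and 0 under the other 18 alternatives; as the members were chosen by these signals, that count is a description and supports nothing. The count of pathway probe sets called was 0 under all 19. Of 19 tested member probe sets 14 kept one sign under all alternatives run; 1 of Pde2a and 4 of Pde7a did not. The log2 difference of Pde3b was 3.27 with a pseudocount of 1 and 2.34 with 64, and that of Pde5a 1460118_at was 2.64 and 1.56. Low signals moved more, as for Pde5a 1458341_x_at (2.16 and 0.80) and Pde8a 1418407_at (-1.57 and -0.49). Among the pathway genes named for the smallest p, the sign turned for Pde6b without both arrays with label doubts (0.0045). Without both replicate 3 arrays it turned for Prkg2 (-0.19), Gucy1b1 (0.030) and Akap12 (-0.13). For the same genes it also turned without single arrays. The ranges were -0.014 to 0.44 for Prkg2, -0.43 to 0.22 for Gucy1b1 and -0.035 to 1.34 for Akap12. Same-numbered arrays correlated in their deviations from group means at r = 0.19, 0.037 and 0.12 for replicates 1, 2 and 3, and each of the 6 arrays correlated best with its own number, which is a hint from the data and not from the design; the numbers were not taken as pairs. The replicate block changed no call of a member or pathway probe set.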
